A study of Homo sapiens with 11 samples.

Results

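The mitosis genes are 46 genes whose products bring a cell into and through mitosis. They fall into 8 roles: cyclins with CDK1 and its activators, mitotic kinases, partners of Aurora B in the chromosomal passenger complex, the spindle checkpoint, the centromere and outer kinetochore, motors with spindle and midzone proteins, chromosome structure, and anaphase. The genes were selected by symbol, not by measured values: a probe belonged to the set when the array's probe annotation gave it 1 of these symbols, which held for 73 of 48803 probes. A probe was analysed when its detection p-value was under 0.01 on at least 5 of the 11 arrays, and 66 probes of 45 mitosis genes passed, out of 14338 probes and 9854 genes in all. The brightest passing probe stands for each gene. That probe was detected on all 11 arrays for 44 of the 45 genes and on 9 arrays for BUB1B, while the 1 probe of NCAPH, a condensin subunit, was detected on 0 of 11 arrays and gave no value.

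The samples were total RNA of NT2D1, a human embryonal carcinoma line with features of pluripotent stem cells, taken on day 6. All cells, controls included, came from clones that stably express TetR3, a tetracycline repressor, and carry the L1TD1 shRNA. The target of the shRNA, L1TD1, encodes a protein that binds RNA and marks pluripotent cells. There were 6 dox+ samples, in which doxycycline switched on the shRNA, and 5 dox- samples without doxycycline. Sample titles begin with 1 or 5, called the title prefix here, and column headers of the deposited table use the same digit in an shRNA name. Prefix 1 held 3 dox+ and 3 dox- samples, and prefix 5 held 3 dox+ and 2 dox- samples. The series' design text gives 6 clones, each sampled in both states, and states that a sample that did not cluster with its group was left out. Because only dox+ cells received doxycycline, an effect of the drug and an effect of the shRNA cannot be told apart.

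Genes of this kind are transcribed late in the cell cycle, so that cyclin B with CDK1 can start mitosis, kinetochores can bind the spindle, and the anaphase-promoting complex can end it. Many of their promoters carry a cell cycle genes homology region, with TTTGAA as its core, often together with CCAAT boxes that the factor NF-Y recognises. The homology region is bound by the DREAM repressor complex in resting cells and by complexes of B-MYB and FOXM1 in dividing cells. Embryonal carcinoma cells divide rapidly and express this programme strongly.

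The promoters were searched for both motifs because they are the best-known feature that these genes share. RefSeq sequences of build GRCh38.p14, from 250 bases before to 50 bases after each transcription start, were matched for 40 of the 46 genes, with 51 promoters among them. TTTGAA, on either strand (TTCAAA on the other), was present in at least 1 promoter of 29 of 40 mitosis genes (72.5%), against 18.2% of 27305 genes in the table. It began within the 40 bases before the start in 20 of 40 mitosis genes, against 2.64% of all genes. CCAAT, on either strand (ATTGG on the other), was present in 31 of 40 (77.5%), against 39.7% of all genes, and both motifs stood in 1 promoter in 22 of 40 genes, against 7.26%. Any overlap between the motifs was counted for both. A match describes letters only and does not show that a factor binds there. The 8 windows below belong to genes whose values are described in the text. They run from 100 bases before to 20 bases after the start, 5′ to 3′ on the gene's strand. Both motifs, in either strand's form, are in capitals. Where a gene had more than 1 promoter, one with TTTGAA in the 40 bases before the start was preferred. All 8 windows hold TTTGAA, against 29 of the 40 genes, so genes without it are not shown. In MKI67 a copy of each motif overlaps the other, so that they share a run of capitals.
CDC25C, chr5:138331785-138331904, minus strand: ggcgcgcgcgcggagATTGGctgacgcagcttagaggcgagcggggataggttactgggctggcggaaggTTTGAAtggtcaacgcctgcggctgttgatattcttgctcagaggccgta
MKI67, chr10:128126404-128126523, minus strand: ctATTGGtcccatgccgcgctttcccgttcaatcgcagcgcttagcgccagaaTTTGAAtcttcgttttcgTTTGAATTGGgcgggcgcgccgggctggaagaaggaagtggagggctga
KIF11, chr10:92593030-92593149, plus strand: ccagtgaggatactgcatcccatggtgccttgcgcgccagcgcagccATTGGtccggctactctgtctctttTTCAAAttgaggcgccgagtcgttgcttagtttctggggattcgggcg
DLGAP5, chr14:55191566-55191685, minus strand: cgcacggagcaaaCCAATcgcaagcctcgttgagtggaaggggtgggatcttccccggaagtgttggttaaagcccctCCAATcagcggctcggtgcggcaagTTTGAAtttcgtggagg
NDC80, chr18:2571457-2571576, plus strand: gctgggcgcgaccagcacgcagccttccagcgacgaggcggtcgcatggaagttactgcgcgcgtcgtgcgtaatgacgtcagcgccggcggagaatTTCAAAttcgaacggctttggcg
BUB1B, chr15:40160969-40161088, plus strand: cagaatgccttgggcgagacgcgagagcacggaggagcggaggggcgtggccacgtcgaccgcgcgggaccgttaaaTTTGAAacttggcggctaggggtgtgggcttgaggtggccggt
CDC20, chr1:43358881-43359000, plus strand: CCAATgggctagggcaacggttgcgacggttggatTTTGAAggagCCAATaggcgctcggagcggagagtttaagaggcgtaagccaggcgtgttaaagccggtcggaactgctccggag
PLK1, chr16:23678789-23678908, plus strand: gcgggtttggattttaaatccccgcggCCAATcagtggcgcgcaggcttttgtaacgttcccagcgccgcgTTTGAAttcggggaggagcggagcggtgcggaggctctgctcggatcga

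The motif begins 30 bases before the start in CDC25C, 29 bases before it in PLK1 and 28 bases before it in KIF11. Another CDC25C promoter, with a different start, holds the motif 43 bases after that start. In MKI67 it occurs at 47 and again at 29 bases before the start. It lies 23 bases before the start in BUB1B and 3 bases before it in NDC80. In the windows of CDC20 and DLGAP5 it lies 65 bases before and 3 bases after the start, and both promoters hold it again further upstream.

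**Figure D1:**
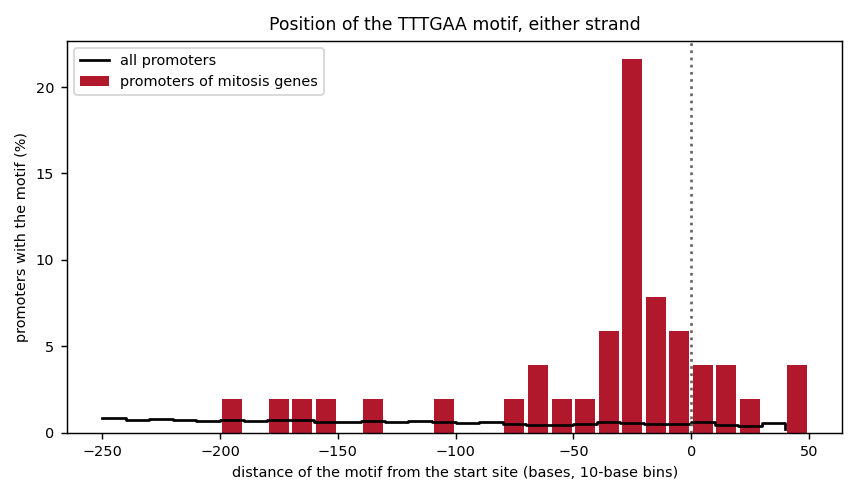
Share of promoters (y axis, %) in which TTTGAA or TTCAAA begins in each 10-base bin of distance from the transcription start (x axis, bases). Bars are the 51 promoters of mitosis genes and the line is all 35116 promoters of the table: in the bin from 30 to 20 bases before the start, 21.6% of mitosis gene promoters hold the motif, against 0.55% of all promoters.

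Between 13301 and 15127 probes were detected on each array, and the mean raw intensity was 348, 378, 358, 375, 423 and 357 in dox+ samples 1 to 6, against 461, 395, 453, 418 and 406 in dox- samples 1 to 5. Dox+ samples other than dox+ 5 lay below every dox- sample before normalization. The shRNA target L1TD1 had a lowest log2 level of 7.34, a median of 7.84 and a highest of 8.33 in dox+ samples, against 8.55, 8.57, 8.86, 8.82 and 8.91 in dox- samples 1 to 5. All dox+ samples lay below all dox- samples, with a difference of -0.91 ± 0.18 (SE; exact two-sided permutation p = 0.00433 over 462 splits, smallest possible 0.00216). The limma p adjusted over all probes was 0.0753. Of 8 markers of undifferentiated embryonal carcinoma cells 7 were detected, including POU5F1, SOX2 and NANOG, and TDGF1 was not among the named probes. GATA4, GATA6, SOX17, FOXA2 and AFP of endoderm, TBXT and MIXL1 of mesoderm and CDX2 of trophoblast were not detected at the filter. Other markers on the same lists were detected: 2 of 7 of endoderm (SPARC and DAB2), 5 of 7 of mesoderm and 3 of 6 of trophoblast (GATA2, GATA3 and KRT7). Of the neural markers 6 of 8 were detected, and of the retinoid differentiation markers 3 of 5.

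The first comparison asked how the mitosis genes differ between dox+ and dox- cells over all 11 samples. No mitosis gene passed the test over all probes: 0 of 45 reached an adjusted p of 0.05 in limma, where 0.0418% of all probes passed. At an unadjusted p under 0.05 there were 3 of 45 genes (6.67%), CDC25C higher, MKI67 and KIF11 lower in dox+ cells, against 16.2% of all probes (7.93% higher, 8.31% lower). In 0 of 45 genes were the dox+ and dox- samples without overlap, against 2.16% of all probes. Levels were higher in dox+ cells for 23 genes and lower for 22, with a median log2 difference of 0.01, which was also the median of all genes. The differences ran from -0.45 to 0.45. All 45 of the 95% intervals lay within a 2-fold change in either direction, and 35 lay within 1.5-fold. Of all 9854 genes, 9195 lay within 2-fold and 5830 within 1.5-fold. With background correction and scaling of each array to a common median in place of quantile normalization, 4 genes were higher and 41 lower, the median was -0.15, and the median of all genes was then -0.11. The part of the lower raw intensity of dox+ arrays in that shift was not tested. In bulk RNA of this kind, fewer dividing cells and less RNA per dividing cell cannot be told apart.

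**Figure D2:**
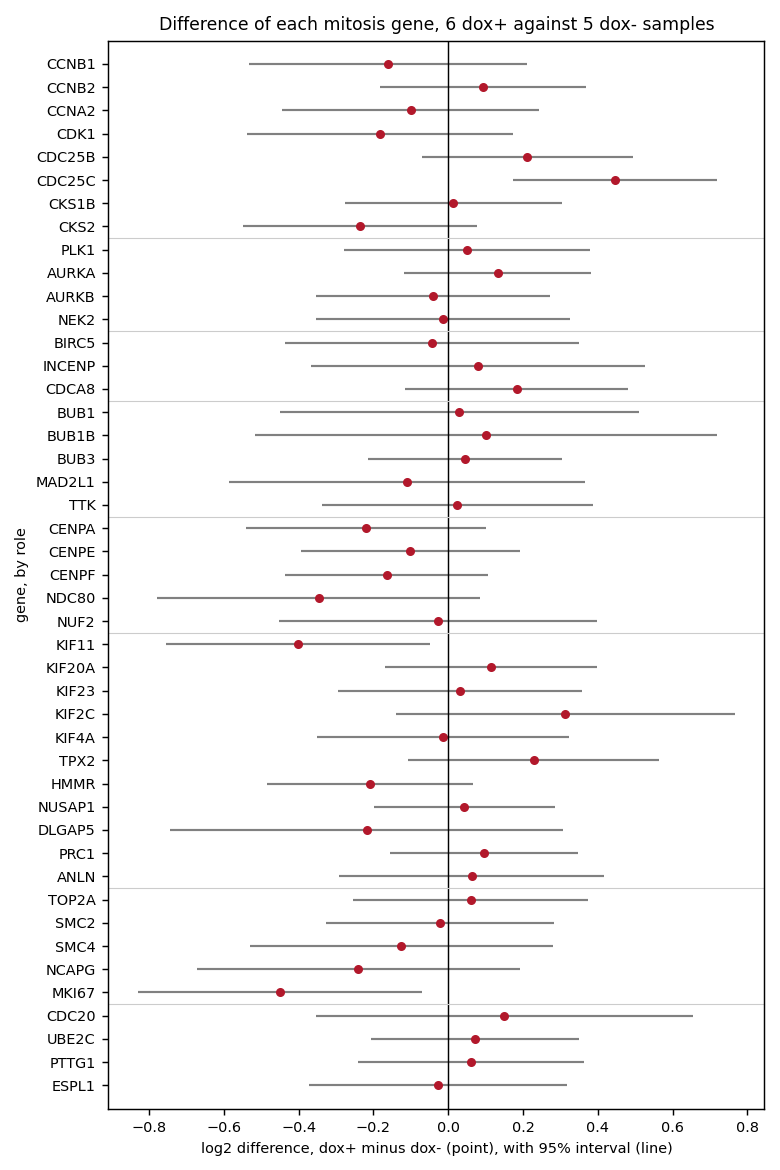
Log2 difference between dox+ and dox- samples (x axis, dox+ minus dox-) for each of the 45 measured mitosis genes (y axis, grouped by role), with points for the estimate and lines for the 95% interval from limma. The estimates lie between -0.45 and 0.45, and the intervals of CDC25C, KIF11 and MKI67 do not cross 0.

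Among the cyclins, CDK1 and its activators, 4 genes were higher and 4 lower in dox+ cells, and none passed the test. CDC25C, a phosphatase that removes inhibitory phosphates from CDK1 at mitotic entry, had a lowest log2 level of 8.18, a median of 8.49 and a highest of 8.68 in dox+ samples, against 7.99, 7.97, 8.01, 8.27 and 7.86 in dox- samples 1 to 5. Every dox+ sample lay above every dox- sample with 1 exception, dox+ 3, which lay below dox- 4. The difference was 0.45 ± 0.13 (SE), or 1.36-fold, with a 95% interval from 0.17 to 0.72 and an adjusted p of 0.134, the lowest of any mitosis gene probe. All 3 detected probes of CDC25C were higher in dox+ cells, by 0.19 to 0.45. CDC25B, a phosphatase of the same family that acts earlier, had a lowest log2 level of 11.16, a median of 11.21 and a highest of 11.38 in dox+ samples, against 10.69, 11.21, 11.17, 10.87 and 11.23 in dox- samples. Only dox- 1 and dox- 4 fell below the whole dox+ range, and the difference of 0.21 ± 0.13 (SE) had an adjusted p of 0.446.

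CKS2, a small subunit that binds CDK1, had a lowest log2 level of 11.94, a median of 12.14 and a highest of 12.60 in dox+ samples, against 12.49, 12.30, 12.67, 12.46 and 12.17 in dox- samples. The groups overlapped, the highest dox+ value being that of dox+ 3, and the difference was -0.24 ± 0.15 (SE, adjusted p = 0.440). CDK1, the kinase that drives mitosis, had a lowest log2 level of 9.34, a median of 9.44 and a highest of 9.75 in dox+ samples, against 10.06, 9.41, 9.76, 10.02 and 9.22 in dox- samples. The 5 dox- samples spanned the whole dox+ range, and the difference was -0.18 ± 0.17 (SE, adjusted p = 0.617). CCNB1, or cyclin B1, the main partner of CDK1 in mitosis, had a lowest log2 level of 7.30, a median of 7.67 and a highest of 8.22 in dox+ samples, against 8.01, 8.0, 7.58, 7.95 and 7.69 in dox- samples. Dox+ 2 lay above all dox- samples and dox+ 3, 4 and 6 below them, and the difference was -0.16 ± 0.17 (SE, adjusted p = 0.681). The remaining cyclins and CDK subunit, CCNB2, CCNA2 and CKS1B, differed by 0.09, -0.10 and 0.01.

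Mitotic kinases differed little, 2 higher and 2 lower in dox+ cells. PLK1, which acts in centrosome maturation, entry and cytokinesis, had a lowest log2 level of 8.63, a median of 8.98 and a highest of 9.42 in dox+ samples, against 8.96, 9.24, 8.74, 8.91 and 9.02 in dox- samples. The dox+ range enclosed the dox- range, with a difference of 0.05 ± 0.15 (SE) and a 95% interval from -0.28 to 0.38. AURKA, the spindle pole kinase, had a lowest log2 level of 12.28, a median of 12.52 and a highest of 12.54 in dox+ samples, against 12.18, 12.47, 12.23, 12.35 and 12.37 in dox- samples. The values of dox+ 1, 2, 3 and 6 exceeded all dox- values, and the difference was 0.13 ± 0.12 (SE, adjusted p = 0.605). AURKB, the kinase of the chromosomal passenger complex, differed by -0.04 and NEK2, a kinase of centrosome separation, by -0.01. Among the partners of AURKB, survivin (BIRC5) differed by -0.04, INCENP, the scaffold, by 0.08 ± 0.21 (SE) and CDCA8, borealin, by 0.18 ± 0.14 (SE).

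In the spindle checkpoint, which delays anaphase until chromosomes are attached, 4 genes were higher and 1 lower in dox+ cells. The differences were -0.11 for MAD2L1, which is part of the inhibitor of the anaphase-promoting complex, 0.02 for the kinase TTK, 0.03 for the kinase BUB1, 0.04 for BUB3 and 0.10 for BUB1B. BUB1B had the widest standard error of all 45 genes, 0.29, and its lowest levels, 5.61 in dox+ 3 and 5.61 in dox- 2, were the lowest of its 11 values. All 5 genes of the centromere and outer kinetochore were lower in dox+ cells, none past the test, with differences from -0.35 to -0.03. The direction of NUF2 among them turned, to 0.04, with the replicate number as a fixed block. NDC80, which with NUF2 binds microtubules, had a lowest log2 level of 6.68, a median of 7.20 and a highest of 7.44 in dox+ samples, against 7.63, 7.72, 7.85, 7.42 and 6.68 in dox- samples. Dox- 4 lay within the dox+ range, dox- 5 just below its lowest value and the other dox- samples above it, and the difference was -0.35 ± 0.20 (SE, adjusted p = 0.417). CENPA, the histone H3 variant of centromeres, differed by -0.22 ± 0.15 (SE), CENPF, a large kinetochore protein, by -0.16, and the motor CENPE by -0.10. A dimmer CENPE probe went the other way, at 0.15 ± 0.29 (SE), so the shared direction holds for the brightest probes only. Dimmer detected probes of CENPA and NUF2 were lower, at -0.19 and -0.14.

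Of the 11 motors, spindle and midzone genes, 7 were higher and 4 lower in dox+ cells. KIF11, the kinesin that pushes spindle poles apart, had a lowest log2 level of 9.31, a median of 9.44 and a highest of 10.07 in dox+ samples, against 9.88, 10.04, 10.31, 9.82 and 9.71 in dox- samples. Dox+ 4 and dox+ 5 reached the dox- range and the other 4 dox+ samples lay below it. The difference was -0.40 ± 0.17 (SE), with a 95% interval from -0.75 to -0.05 and an adjusted p of 0.249. KIF2C, a kinesin that takes microtubules apart at centromeres, had a lowest log2 level of 10.73, a median of 11.31 and a highest of 11.62 in dox+ samples, against 10.76, 11.43, 10.28, 11.17 and 11.23 in dox- samples. The lowest dox- value was that of dox- 3, and the difference was 0.31 ± 0.21 (SE, adjusted p = 0.487). HMMR, a spindle assembly factor, had a lowest log2 level of 10.26, a median of 10.58 and a highest of 10.72 in dox+ samples, against 10.97, 10.74, 10.83, 10.63 and 10.61 in dox- samples. All dox- values but the 2 of prefix 5 lay above the dox+ range, and the difference was -0.21 ± 0.13 (SE, adjusted p = 0.438). DLGAP5, a protein that bundles spindle microtubules, differed by -0.22 ± 0.25 (SE), and its values are given within each prefix below. TPX2, an activator of AURKA, differed by 0.23, the kinesins KIF20A, KIF23 and KIF4A by 0.12, 0.03 and -0.01, the midzone protein PRC1 by 0.10, anillin (ANLN) by 0.06 and the microtubule-associated NUSAP1 by 0.04.

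In chromosome structure 1 gene was higher and 4 were lower in dox+ cells. MKI67, which coats mitotic chromosomes and whose product Ki-67 is used to stain dividing cells, had a lowest log2 level of 6.52, a median of 6.87 and a highest of 7.48 in dox+ samples, against 7.02, 7.48, 7.47, 7.39 and 7.66 in dox- samples. Dox+ 4 and dox+ 6 lay in the dox- range and the other 4 dox+ samples below it. The difference was -0.45 ± 0.18 (SE), or 1.37-fold lower, with a 95% interval from -0.83 to -0.07 and an adjusted p of 0.230. TOP2A, which untangles sister chromatids, had a lowest log2 level of 12.01, a median of 12.10 and a highest of 12.42 in dox+ samples, against 12.01, 12.09, 12.52, 11.74 and 12.07 in dox- samples. The groups overlapped throughout, with a difference of 0.06 ± 0.15 (SE). The condensin subunits NCAPG, SMC4 and SMC2 differed by -0.24, -0.13 and -0.02. Of the anaphase genes, CDC20, the activator of the anaphase-promoting complex, differed by 0.15, its ubiquitin-conjugating enzyme UBE2C by 0.07, securin (PTTG1) by 0.06 and separase (ESPL1), which securin holds inactive, by -0.03.

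**Figure D3:**
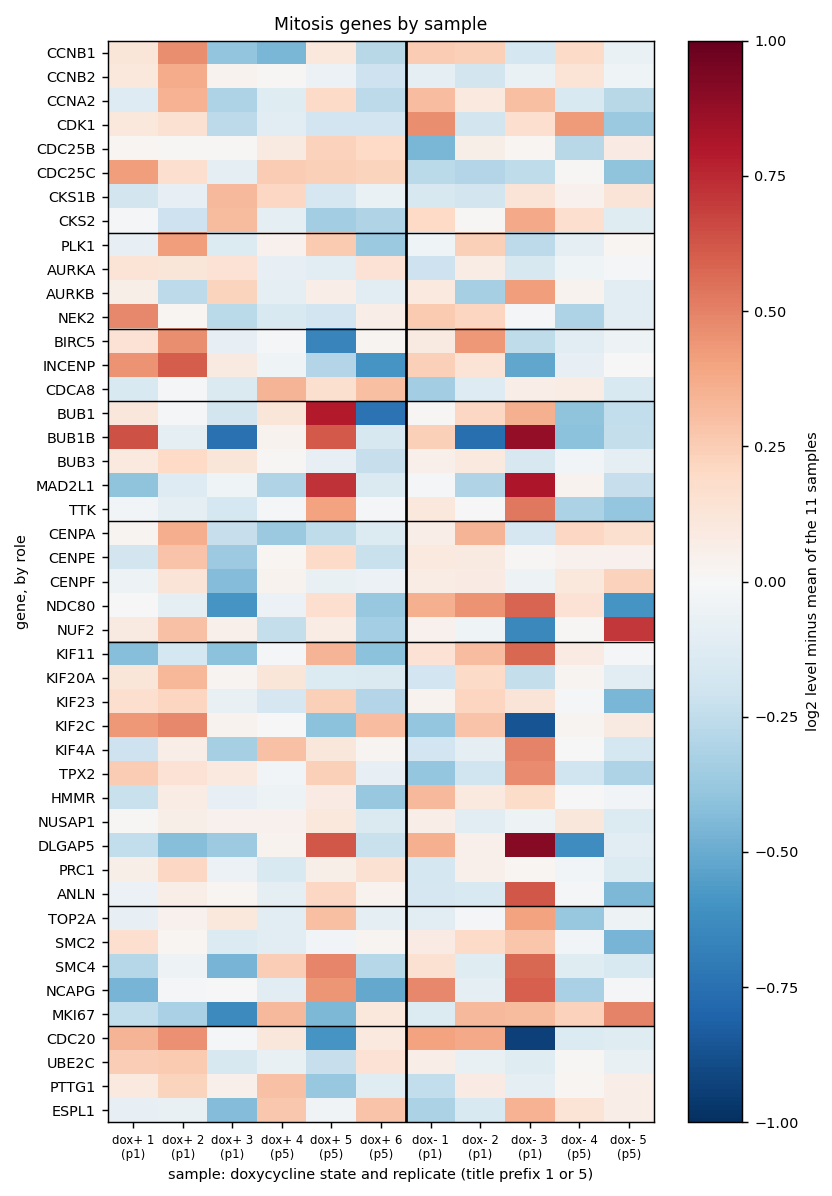
Level of each of the 45 mitosis genes (y axis, grouped by role with lines between roles) in each of the 11 samples (x axis, dox+ samples left of the line, p1 and p5 for the title prefix), coloured by the log2 level minus the gene's mean over the 11 samples. CDC25C is above its mean in every dox+ sample but dox+ 3.

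The same contrast was then taken within each title prefix, in a model with a separate effect of doxycycline in each. Within prefix 1, 0 of 45 mitosis genes passed an adjusted p of 0.05 in limma, against 4.87% of all probes. At an unadjusted p under 0.05 there were 6 genes (13.3%), 2 higher and 4 lower in dox+ cells, against 24.0% of all probes (12.0% in each direction). The median difference was -0.05, against 0.00 for all genes, with 19 genes higher and 26 lower.

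KIF11 had log2 levels of 9.31, 9.56 and 9.33 in dox+ samples 1 to 3, against 9.88, 10.04 and 10.31 in dox- samples 1 to 3. All 3 dox+ values lay below all 3 dox- values, and the difference was -0.68 ± 0.20 (SE, adjusted p = 0.0663). In prefix 1, DLGAP5 had log2 levels of 9.04, 8.86 and 8.93 in dox+ samples, against 9.64, 9.34 and 10.20 in dox- samples. Here too the groups did not overlap, and the difference was -0.78 ± 0.26 (SE, adjusted p = 0.0863). Both genes passed with the replicate number, taken as the clone, as a block: the adjusted p was 0.0443 for KIF11 and 0.0373 for DLGAP5 with a fixed block, and 0.0381 and 0.0485 with a random block. KIF11 also passed without dox+ 5 (adjusted p = 0.0457) or dox+ 6 (adjusted p = 0.0388), samples of prefix 5 that enter only the shared spread. Over all settings the limma adjusted p ran from 0.0248 to 0.191 for KIF11 and from 0.0373 to 0.270 for DLGAP5. No share of all probes under the same setting was set beside these passes. The count of all probes called in prefix 1 also moved. It was 698 in the main fit, 1 to 1138 with 1 sample left out and 109 to 2674 under the other settings.

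NDC80 had log2 levels of 7.27, 7.18 and 6.68 in dox+ samples of prefix 1, against 7.63, 7.72 and 7.85 in its dox- samples. All 3 dox+ values were lower, by -0.69 ± 0.23 on average (SE, adjusted p = 0.0917). MKI67 had log2 levels of 6.91, 6.84 and 6.52 in dox+ samples, against 7.02, 7.48 and 7.47 in dox- samples. Its values did not overlap either, with a difference of -0.57 ± 0.22 (SE, adjusted p = 0.136). For KIF2C the log2 levels were 11.57, 11.62 and 11.17 in dox+ samples, against 10.76, 11.43 and 10.28 in dox- samples. The groups overlapped through dox- 2, the difference was 0.64 ± 0.27 (SE, adjusted p = 0.171), and without dox- 2 it was 0.94, with an adjusted p of 0.0466.

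Within prefix 1 all dox+ samples lay above all dox- samples in 5 of the 45 genes (CCNB2, CDC25C, AURKA, BUB3 and NUF2) and below them in 6 (TTK, NDC80, KIF11, HMMR, DLGAP5 and MKI67). Among all genes the shares were 15% and 14.6%. By role, all 5 chromosome structure genes were lower in dox+ cells of prefix 1, with a median of -0.47, and 4 of 5 spindle checkpoint genes were lower, with a median of -0.22. None of these genes passed the test. Both directions also held in the authors' normalized values and with median scaling, where the medians were -0.55 and -0.50 at an all-gene median of -0.19.

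Other gene groups were also described within prefix 1. Of 28 measured S phase genes, which replicate DNA, 26 were lower in dox+ cells, with a median of -0.37. Of the 28, 1 passed the test, where 4.87% of all probes did. It was MCM2 of the replicative helicase, at -0.75 ± 0.19 (SE, adjusted p = 0.0415). All 7 measured markers of undifferentiated cells were lower, 0 past the test, with a median of -0.54, and their summed intensity was 21676 to 24148 in dox+ samples, against 25134 to 28923 in dox- samples. Of 6 trophoblast markers, 3 were detected and all were higher, with GATA2 at 1.40 ± 0.31 (SE, adjusted p = 0.0293) and GATA3 at 1.34 ± 0.29 (SE, adjusted p = 0.0293) past the test. The summed intensity of these 3 was 373 to 415 in dox+ samples, against 147 to 236 in dox- samples, and CDX2, CGA and CGB5 were not detected. The endoderm marker DAB2 also passed, at 0.73 ± 0.19 (SE, adjusted p = 0.0458). All 6 measured neural markers were lower, 0 past the test, with a median of -0.37 and a summed intensity of 5553 to 6467 in dox+ samples, against 6662 to 7582.5 in dox- samples. All 5 measured mesoderm markers were lower, 0 past the test, with a median of -0.63 and a summed intensity of 1218 to 4096 in dox+ samples, against 2454 to 3919 in dox- samples. Of 3 retinoid differentiation markers 2 were higher and 1 lower, 0 past the test. Over all samples the same S phase, neural and mesoderm lists were lower in 24 of 28, 6 of 6 and 5 of 5 genes, with 0 past the test. The part of these differences in the values of the mitosis genes was not tested.

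Within prefix 5, 0 of 45 mitosis genes passed an adjusted p of 0.05, and 0% of all probes did. At an unadjusted p under 0.05 there were 2 genes (4.44%), both higher in dox+ cells, against 5.89% of all probes (2.71% higher, 3.18% lower). The median difference was 0.02, against 0.01 for all genes, with 25 genes higher and 20 lower. TTK had log2 levels of 9.36, 9.78 and 9.36 in dox+ samples 4 to 6, against 9.06 and 8.99 in dox- samples 4 and 5. All dox+ values were higher, with a difference of 0.47 ± 0.21 (SE, adjusted p = 0.830). CDC25C had log2 levels of 8.52, 8.51 and 8.48 in dox+ samples of prefix 5, against 8.27 and 7.86 in its dox- samples. The groups were again apart, with a difference of 0.44 ± 0.20 (SE, adjusted p = 0.835), and in prefix 1 the values were 8.68, 8.43 and 8.18 in dox+ samples, against 7.99, 7.97 and 8.01 in dox- samples, a difference of 0.44 ± 0.17 (SE, adjusted p = 0.145).

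For NUF2 the log2 levels in prefix 5 were 6.92, 7.23 and 6.83 in dox+ samples, against 7.18 and 7.87 in dox- samples. The groups overlapped through dox+ 5, and the difference was -0.53 ± 0.26 (SE, adjusted p = 0.840). A dimmer NUF2 probe, detected in 2 dox+ and 3 dox- samples, differed by 0.17 ± 0.37 (SE) in prefix 5. CENPA had log2 levels of 9.95, 10.07 and 10.19 in dox+ samples, against 10.53 and 10.48 in dox- samples. Both dox- values were higher, with a difference of -0.44 ± 0.21 (SE, adjusted p = 0.840). In prefix 5 all dox+ samples lay above all dox- samples in 7 of 45 genes (CDC25B, CDC25C, CDCA8, BUB1B, TTK, KIF4A and TPX2) and below them in 2 (CENPA and CENPF), against 12.6% and 10.9% of all genes. CDC25C was the 1 gene in which the groups were apart in the same direction in both prefixes, and TTK the 1 gene apart in opposite directions. Each is 2.22% of the 45 mitosis genes, against 4.13% of all genes for the same direction and 2.42% for opposite directions.

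**Figure D4:**
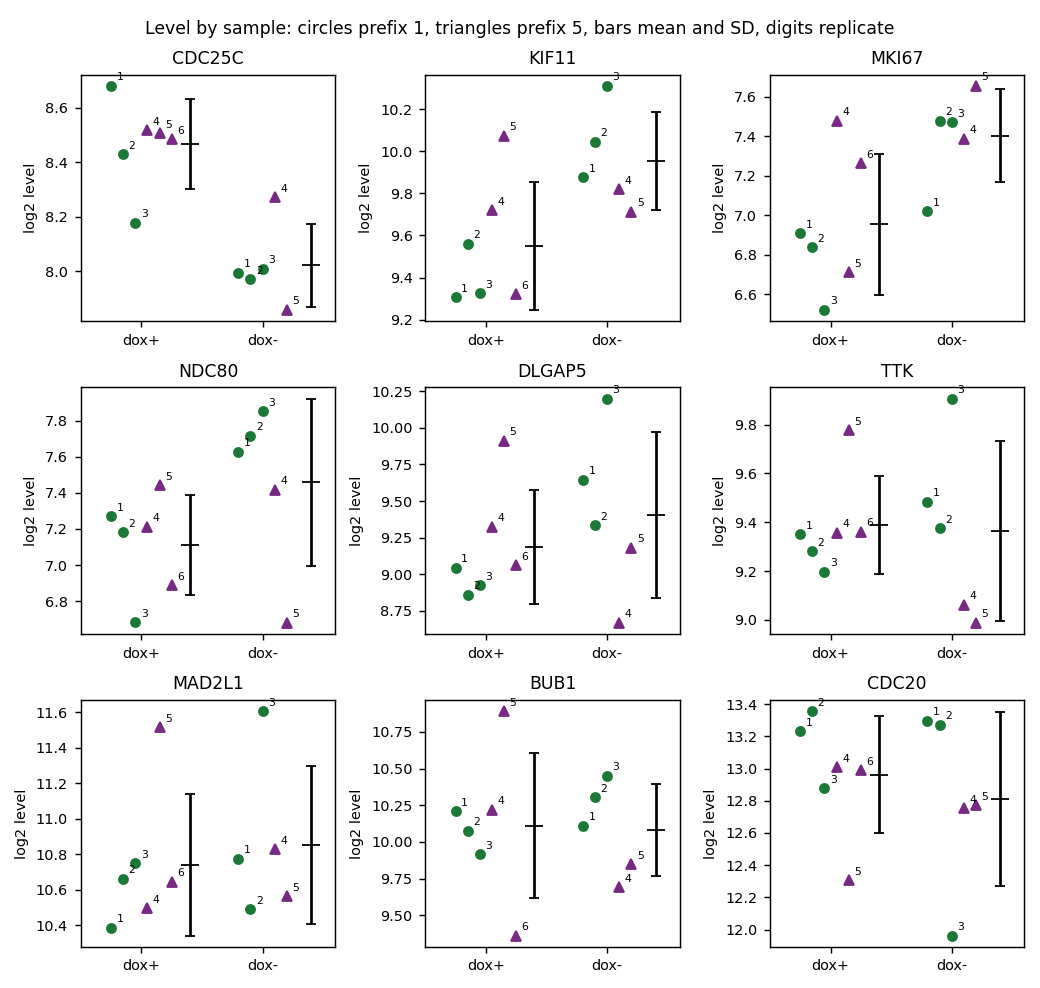
Log2 level (y axis) of 9 mitosis genes in each sample, with dox+ samples left of dox- samples, circles for prefix 1 and triangles for prefix 5, digits for the replicate, and a bar for the mean and SD of each group. CDC25C is higher in dox+ samples of both prefixes, TTK is lower in prefix 1 and higher in prefix 5, and MAD2L1 stands high in dox+ 5 and dox- 3.

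Whether doxycycline acted differently in the prefixes was tested by the difference of the effects, prefix 5 minus prefix 1. In limma 0 of 45 mitosis genes passed an adjusted p of 0.05, against 0.0209% of all probes, and 5 genes (11.1%) had an unadjusted p under 0.05, 4 with a higher and 1 with a lower effect in prefix 5, against 12.3% of all probes (6.15% higher, 6.19% lower). DLGAP5 differed most: dox+ minus dox- came to 0.51 ± 0.29 (SE) for prefix 5, against -0.78 ± 0.26 (SE) for prefix 1, so that the difference of effects was 1.29 ± 0.39 (SE, adjusted p = 0.298). In prefix 5 its log2 levels were 9.32, 9.91 and 9.06 in dox+ samples, against 8.67 and 9.18 in dox- samples, which overlapped. For NUF2 the difference of effects was -0.89 ± 0.34 (SE, adjusted p = 0.343), for NDC80 it was 0.82 ± 0.34 (SE, adjusted p = 0.372), and for TTK it was 0.79 ± 0.28 (SE, adjusted p = 0.322). The dimmer NUF2 probe went the other way, at 0.58 ± 0.50 (SE), with -0.42 in prefix 1 and 0.17 in prefix 5. Without dox+ 5 and dox- 3, the difference of effects of DLGAP5 was 0.81 and that of TTK 0.49.

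The median difference of effects over the 45 genes was 0.10, against 0.00 for all genes, and it was 0.0015 without dox+ 5. All 5 chromosome structure genes had a higher effect in prefix 5, with a median difference of 0.37, and 4 of 5 spindle checkpoint genes did, with a median of 0.61. Lists outside the mitosis genes differed likewise: the effect was higher in prefix 5 for 25 of 28 S phase genes, with a median of 0.39, and for 7 of 7 markers of undifferentiated cells, with a median of 0.56. It was lower for 3 of 3 trophoblast markers, with a median of -0.98, and the part of these differences was not tested. Within prefix 5 the chromosome structure genes were higher in dox+ cells in 4 of 5 cases, MKI67 being the exception at -0.37 ± 0.25 (SE), and the checkpoint genes in 4 of 5, BUB3 being the exception at -0.04. These directions were the same in the authors' normalized values. With median scaling they were the same but for BUB3, which had a higher effect in prefix 5, so that all 5 checkpoint genes did. These counts take the brightest probe of each gene, and dimmer probes did not all go with them. Within prefix 5 a dimmer BUB3 probe was at 0.49 ± 0.21 (SE) and another at -0.14 ± 0.28 (SE). A dimmer SMC4 probe was at -0.56 ± 0.41 (SE) there, with a difference of effects of -0.54 ± 0.55 (SE). The 95% intervals of the difference of effects lay within 2-fold in either direction for 28 of 45 genes and within 1.5-fold for 3. Among all 9854 genes these counts were 4943 and 303.

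**Figure D5:**
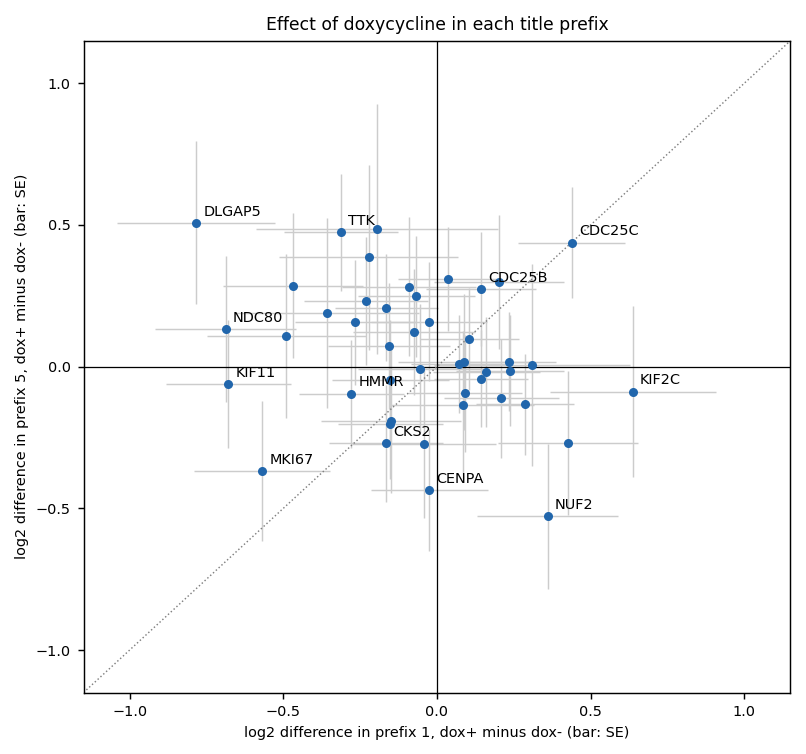
Log2 difference between dox+ and dox- samples within prefix 5 (y axis) against that within prefix 1 (x axis) for the 45 mitosis genes, with bars for the standard error and names for genes of the naming rule. CDC25C lies near 0.44 on both axes, while DLGAP5 lies at 0.51 in prefix 5 and -0.78 in prefix 1.

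Levels between the prefixes, with the doxycycline state as a term, differed little. In limma 0 of 45 mitosis genes passed, against 0.0767% of all probes, and 0 had an unadjusted p under 0.05, against 11.4% of all probes. Between prefixes, 13 genes were higher in prefix 5 and 32 lower, with a median of -0.08, against -0.0025 for all genes. INCENP was lower in prefix 5 by -0.38 ± 0.19 (SE, adjusted p = 0.477), and KIF23, a kinesin of the midzone, by -0.26 ± 0.14 (SE, adjusted p = 0.511). MKI67 was higher in prefix 5 by 0.31 ± 0.16 (SE, adjusted p = 0.503) and CDCA8 by 0.25 ± 0.13 (SE, adjusted p = 0.478).

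The spread of the mitosis genes over single samples was also described. The range of a gene over the 11 arrays ran from 0.26 for NUSAP1 to 1.63 for BUB1B, with a median of 0.79, against 0.94 for all genes. MAD2L1 stood at 11.51 in dox+ 5 and 11.60 in dox- 3, against 10.39 to 10.83 in the other 9 samples. BUB1 likewise had its highest values, 10.89 and 10.45, in these samples. Dox+ 5 and dox- 3, which differ in doxycycline state, in prefix and in replicate number, were the 2 highest samples for 8 of the 45 genes (BUB1, MAD2L1, TTK, KIF11, DLGAP5, ANLN, TOP2A and SMC4). That is 17.8% of the mitosis genes, against 8.65% of all genes. They were the 2 lowest for 3 genes, BIRC5, KIF2C and CDC20, against 9.58% of all genes. CDC20 had 12.31 in dox+ 5 and 11.96 in dox- 3, against 12.76 to 13.36 in the other samples. This pair was singled out after the values were seen. With both samples left out, 0 of 45 genes passed in each of the 5 comparisons, and CDC25C differed by 0.43 (adjusted p = 0.162).

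More than 1 probe was detected for 19 mitosis genes. Over all samples, all probes of 13 of them differed in the same direction between dox+ and dox- cells. The exceptions were CKS1B, NEK2, CENPE, NUSAP1, UBE2C and PTTG1. The less bright NEK2 probe (ILMN_1653822) differed by 0.46 (adjusted p = 0.150) and the brighter one by -0.01, and the less bright probe of HMMR (ILMN_2409220) by -0.42 (adjusted p = 0.279). These probes were chosen after their values were seen.

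Other genes of the mitotic pathway were described through fixed lists. None of their members passed in dox+ against dox- cells over all samples. Of 12 measured subunits and partners of the DREAM, B-MYB and FOXM1 complexes and NF-Y, 4 were higher and 8 lower, and RBL2, or p130, a DREAM subunit, had the smallest p, at 0.30 ± 0.12 (SE, adjusted p = 0.223). RBL2 ranged from 9.27 to 9.61 in dox+ samples and from 9.04 to 9.27 in dox- samples. Of 13 genes of the anaphase-promoting complex and its regulators, 5 were higher and 8 lower, and ANAPC1, its largest subunit, differed by 0.33 ± 0.14 (SE, adjusted p = 0.247). Of 15 condensin and cohesin genes, 6 were higher and 9 lower, and the cohesin subunit STAG1 differed by -0.59 ± 0.23 (SE, adjusted p = 0.223).

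Of 28 other kinetochore and checkpoint genes, 6 were higher and 22 lower in dox+ cells, with a median of -0.14, and NSL1, of the inner part of the outer kinetochore, differed by -0.40 ± 0.15 (SE, adjusted p = 0.203). Of 26 other spindle and cytokinesis genes, 11 were higher and 15 lower, and PIMREG differed by -0.38 ± 0.14 (SE, adjusted p = 0.201). Of 17 entry kinases, phosphatases and their regulators, 8 were higher and 9 lower, and ENSA, which inhibits the phosphatase PP2A when phosphorylated, differed by -0.70 ± 0.19 (SE, adjusted p = 0.114). Within prefix 1 the limma test called 3 genes of these lists, which is 2.70% of their 111 measured genes, against 4.87% of all probes. They were named for that call and were all lower in dox+ cells: ENSA at -1.01 ± 0.21 (SE, adjusted p = 0.0259), SPC25, a partner of NDC80 and NUF2, at -0.84 ± 0.20 (SE, adjusted p = 0.0355), and STAG1 at -0.96 ± 0.24 (SE, adjusted p = 0.0426). SPC25 had log2 levels of 7.74, 8.05 and 8.15 in dox+ samples of prefix 1, against 8.87, 8.61 and 8.99 in its dox- samples. Within prefix 5 none of them passed, and for ENSA and SPC25 the differences there were -0.36 and -0.10.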

How the data were processed

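Gene expression in 11 NT2D1 samples was measured on Illumina bead arrays, with 1 array for each sample. The authors deposited a non-normalized intensity for each probe beside a detection p-value, per the file headers, and a matrix of normalized intensity that served as an alternative. Limma is named in the submitters' processing notes, without a version. Intensities were corrected, normalized by quantiles and put on the log2 scale with neqc (limma 3.58.1, R 4.3.3, statmod 1.5.0; offset 16), and the filter on detection p (0.01, 5 arrays) was then applied. Levels and differences are log2 values and are not compared between probes. The probe annotation named 1 gene for 28098 probes, several for 13 and none here for 20692; 0 columns were unused.

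Groups were compared with limma over all 14338 kept probes, two-sided, with Benjamini-Hochberg adjustment at 0.05. The first comparison used the doxycycline state alone, the second a separate effect in each prefix, and the third doxycycline and prefix. The fit of the doxycycline state alone was tested on simulated data with independent noise, and the prefix comparisons were not checked this way. L1TD1 was tested by exact permutation. Genes were named by rule: CCNB1, CDK1, PLK1, AURKA, MKI67 and TOP2A always, the 8 with the smallest p for doxycycline, the 4 with the smallest p in each prefix comparison, and 1 gene of each other list. The mitosis genes, the lists and the tests were chosen with earlier results of these data known.

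The design text gives 6 clones in both states. Same-numbered samples have 1 prefix and title numbers that lie 9 (prefix 1) or 11 (prefix 5) apart, so each number was read as a clone, which the labels do not say. Deviations of same-numbered samples correlated at 0.0996, 0.400, -0.0644, 0.0549 and -0.194. A p-value of the main fits measures the spread between arrays, taken as independent, of clones of 1 cell line. Only the block alternatives used the number read as a clone. The number of arrays limits precision. Promoters are from RefSeq, GRCh38.p14. Alternatives were other normalizations, filters, blocks, array weights, averaged probes and each sample left out.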

Additional observations from a re-analysis of the deposited data

Results flagged for a closer look

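Of 92 sets of values (the dox+ or dox- samples of 1 gene), 6 held a sample far from the others by Dixon's ratio, which by chance occurs in about 1 in 20. MAD2L1 in dox+ 5 stood at 11.51, 0.77 above the next dox+ sample, and TTK in the same sample at 9.78, 0.42 above the next. KIF4A in dox- 3 stood at 10.02, 0.49 above the next dox- sample, and TPX2 in that sample at 10.80, 0.67 above the next. CENPF in dox+ 3 stood low, at 10.93, 0.36 below the next dox+ sample, and NUSAP1 in dox+ 6 at 11.66, 0.16 below the next. The cause was not tested.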

How the results depend on the processing

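No mitosis gene passed in dox+ against dox- cells, in prefix 5, in the difference of effects or in the level between prefixes under any alternative run, each sample left out included. In prefix 1 the count of genes that passed was 1 with the authors' normalized values and 1 with no background correction, in both KIF11, and 2 each, KIF11 and DLGAP5, with median scaling, the fixed replicate block, the random block and array weights. Leaving out 1 sample gave 0 to 1, and the block changed no other call of a mitosis gene. These counts were not set against the share of all probes under the same setting, so they do not set these genes apart. Over all probes, those called in prefix 1 numbered 698, from 1 to 1138 when 1 sample was left out and from 109 to 2674 under the other settings, and those called over all samples numbered 6, between 0 and 31. Members at an unadjusted p under 0.05 numbered 3, between 2 and 6, over all samples and 6, between 4 and 12, in prefix 1. They numbered 2, between 0 and 5, in prefix 5 and 5, between 2 and 9, for the difference of effects. For the level between prefixes there were 0, between 0 and 7. The share of all probes at that p ran from 8.979% to 20.32% over all samples and from 12.16% to 33.74% in prefix 1. In prefix 5 it ran from 2.448% to 11.55%. The share ran from 7.449% to 21.04% for the difference of effects and from 7.204% to 19.13% for the level. Counts and shares were not compared setting by setting, so these counts do not set the mitosis genes apart.

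The median member difference was -0.15 with median scaling over all samples, at an all-gene median of -0.11, and from -0.042 to 0.046 when 1 sample was left out. In prefix 1 it was -0.31 with median scaling and from -0.080 to 0.057 with 1 sample left out, 0.057 being the value without dox+ 3. For the difference of effects it was 0.30 with median scaling, at an all-gene median of 0.18, and from 0.0015, without dox+ 5, to 0.12 with 1 sample left out. Small differences changed sign. With median scaling PLK1 was at -0.090, AURKA at -0.087, TOP2A at -0.17, TTK at -0.12, INCENP at -0.064, CDCA8 at -0.012 and KIF23 at -0.12. With 1 sample left out, the values ran from -0.029 to 0.13 for PLK1, from -0.027 to 0.17 for TOP2A, from -0.070 to 0.16 for TTK, from -0.19 to 0.15 for NUF2, from -0.039 to 0.20 for INCENP and from -0.078 to 0.092 for KIF23. NUF2 was at 0.038 with the fixed block. PLK1 was at -0.056 without dox+ 5 and dox- 3, an alternative added after seeing the data. The causes were not tested, and dim probes such as BUB1B limit what these arrays resolve.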
